A study of Mus musculus with 12 samples.

Results

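The genes described here are 40 mouse genes of fatty acid uptake and beta-oxidation, chosen by a list of names, among the 30743 gene symbols listed for the fetal liver. Of these, 21 were assigned to mitochondria (the ketone body enzymes and a thioesterase included) and 10 to peroxisomes. A further 8 act in the uptake, binding and activation of fatty acids, and 1, Ppargc1a, is a transcriptional regulator. Crat, Acad11, Eci2, Hsd17b4 and Scp2, taken as genes of both compartments, were each counted in 1. All 40 had a row in the table.

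The livers came from male C57BL/6J fetuses at 15 ± 0.5 dpc, 6 from dams on the control diet (13.5% of kcal from fat) and 6 from dams on a high-fat diet (HFD, 60% of kcal from fat), each fed for 12 to 14 weeks. Whole livers were sequenced as polyA-selected RNA, so hepatocytes and blood-forming cells were measured together, and a lower share of one cell type cannot be told apart from less RNA per cell. The values used are the authors' average log2 CPM (read counts scaled to a common library size), 1 value per gene over all 12 livers of both diets. Because the livers are pooled in it, no value below has an SD, no difference between the diets was computed, and differences between genes were not tested. Depth per liver is unknown from these values.

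Fatty acids enter cells through membrane proteins, are bound by carriers in the cytosol and are activated to acyl-CoA. Long chains cross into mitochondria through the carnitine shuttle and are shortened there by rounds of dehydrogenation, hydration, oxidation and thiolysis, with electrons passed to the respiratory chain. Peroxisomes run a like cycle on very long, branched and bile acid chains, starting with an oxidase in place of a dehydrogenase. In liver the resulting acetyl-CoA feeds ketone body synthesis. The fetal liver is also a main site of blood formation.

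The listed levels of the 40 genes ranged from 0.152 to 531 CPM, with a median of 110 CPM. That median lay at percentile 92.5 of the 19652 rows with reads, whose own median was 1.15 CPM. Of the 40, 30 were above 10 CPM, 21 were above 100 CPM and 7 were under 1 CPM. Of the 19652 rows with reads, 5535 were above 10 CPM, 1632 above 100 CPM and 9481 under 1 CPM. Of all 30743 rows, 20572 were under 1 CPM. The highest levels were those of Acat1 (531 CPM), Acaa2 (510 CPM), Acadl (361 CPM) and Acsl5 (357 CPM). At the other end, Acsl3 and Ppargc1a were listed at 0.152 CPM, the lowest value of the table, which 11091 rows without reads share.

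Among the members, low listed levels were more frequent where RefSeq curates several transcripts for a gene. Of the 30 members with 1 curated RefSeq transcript, 2 (Crat and Ppargc1a) were under 1 CPM, and the median was 141 CPM. Of the 10 members with 2 or more, 5 (Hadhb, Acox3, Cd36, Acsl3 and Acsl4) were under 1 CPM, and the median was 1.90 CPM. Among all protein-coding rows, 10.9% of the 11286 with 1 curated transcript were above 100 CPM, against 3.74% of the 7077 with 2 or more. The shares under 1 CPM lay closer, at 51.5% and 59.4%, and the share at the lowest value went the other way, at 24.4% and 18.5%. The 5 of 10 members with 2 or more thus lay near the 59.4% of such rows. The 2 of 30 members with 1 lay far below the 51.5%. Over rows with reads alone the shares lay further apart. Under 1 CPM were 3059 of the 8528 such rows with 1 curated transcript and 2896 of the 5766 with 2 or more. Genes that every cell uses were also listed low: of 72 rows of cytosolic ribosomal proteins, 10 were under 1 CPM. Their transcript numbers are not given here. Of the 72, 4 (Rps21, Rps25, Rps27a and Rps28) were at the lowest value, as was Hnf4a, a defining transcription factor of hepatocytes. For this reason a low value of a member is given here as its listed level and not as low expression. The part of the transcript number in these values was not tested, and the authors' counting tool and the release of their gene annotation are not given in the sources used here.

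**Figure D1:**
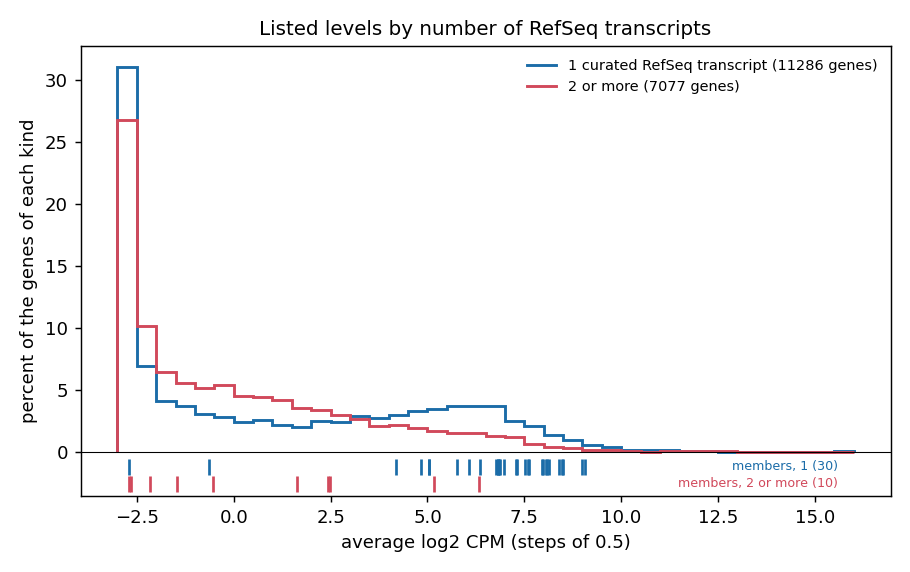
Histogram of the average log2 CPM of protein-coding genes with 1 curated RefSeq transcript (11286 genes, blue) and with 2 or more (7077 genes, red), as the percent of each kind in steps of 0.5. Ticks under the axis are the 30 and 10 members of each kind; 5 of the 10 red ticks lie under 1 CPM, the 0 of this axis, against 2 of the 30 blue ones.

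The tissue label was checked against marker genes. Hepatocyte markers Alb (63314 CPM), Afp (54525 CPM), Apoa1 (5096 CPM) and Ttr (2590 CPM) were among the most abundant, while Serpina1a, with 2 curated transcripts, was listed at 0.184 CPM. Erythroid markers Hba-a2 (49707 CPM), Hbb-b1 (24904 CPM) and Slc4a1 (12037 CPM) stood beside them, and Alas2, with 2 curated transcripts, was listed at 0.704 CPM. Markers of muscle and fat, which also oxidise or store fatty acids, were listed lower. Ckm was at 10.3 CPM, Myh7 at 4.25 CPM and Adipoq at 0.171 CPM, and Myh6 and Plin1 were at the lowest value. Other blood cells were represented by Mpo (759 CPM), Lyz2 (438 CPM) and Elane (112 CPM) of myeloid cells, with Csf1r listed at 0.684 CPM, by Cd5l (385 CPM) of macrophages, whose marker Clec4f was lower (log2 CPM of 4.64), and by Pf4 (150 CPM), Gp9 (44.3 CPM) and Itga2b (4.99 CPM) of megakaryocytes. Gata1, shared by erythroid cells and megakaryocytes, was at 367 CPM. Endothelial Kdr was at 71.0 CPM and Stab2 at 2.24 CPM, with Pecam1 at the lowest value. Stellate Des, Lrat and Dcn were at 23.9, 15.8 and 14.1 CPM. Among these markers, Csf1r, Stab2 and Itga2b have 1 curated transcript, Kdr and Dcn have 2, and Pecam1 has 4. Of the markers of the neighbouring pancreas, Cela1 was at 13.7 CPM and Cpa1 at 8.04 CPM, percentiles 74.5 and 69.8 of rows with reads. Pnlip was listed at 0.165 CPM. Whether pancreas cells gave these reads was not tested. Since Hnf4a and Pecam1 were at the lowest value too, low listed levels do not show that muscle, fat or pancreas cells were absent. Blood cells also oxidise fatty acids, and their part in the levels of the 40 genes was not tested.

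**Figure D2:**
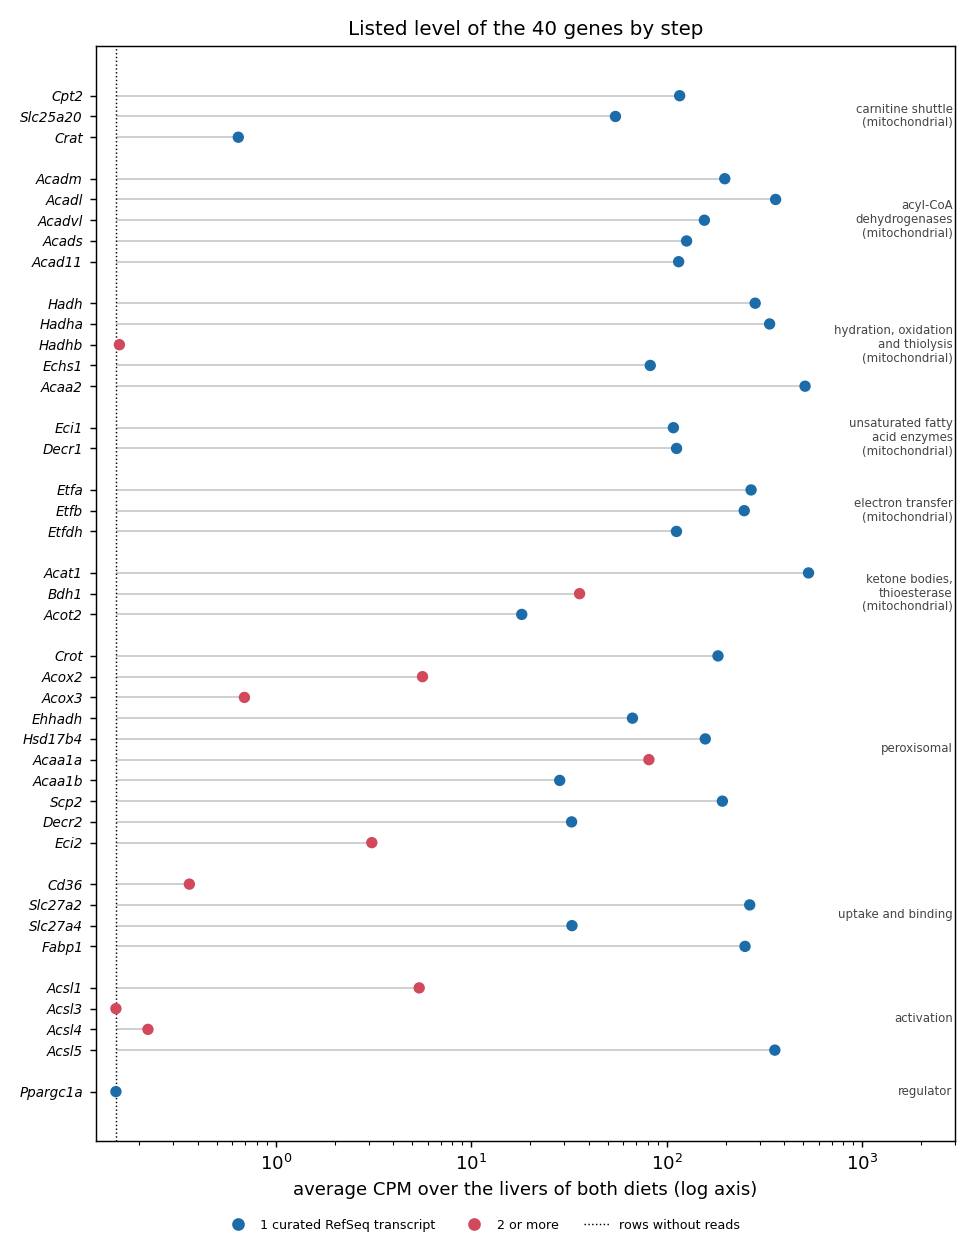
Average CPM (log axis) of the 40 genes, grouped by step; each point is 1 gene, blue for 1 curated RefSeq transcript and red for 2 or more, and the dotted line is the value of rows without reads. The 5 acyl-CoA dehydrogenases lie close together between 115 and 361 CPM, whereas the activating enzymes run from 0.152 to 357 CPM.

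Mitochondrial steps were listed at a median of 116 CPM over 21 genes, at percentile 92.9 of rows with reads, and 15 of the 21 were above 100 CPM. In the carnitine shuttle, Cpt2, which rebuilds acyl-CoA on the inner membrane, was at 116 CPM and Slc25a20, the carnitine-acylcarnitine carrier, at 54.7 CPM. Crat, which exchanges short acyl groups between carnitine and coenzyme A, was listed at 0.644 CPM. It has 1 curated RefSeq transcript.

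The acyl-CoA dehydrogenases carry out the first step of each round and differ in the chain length they prefer. All 5 had 1 curated transcript and were above 100 CPM. Acadl, for long chains, was at 361 CPM, Acadm, for medium chains, at 198 CPM, and Acadvl, for very long chains, at 156 CPM. Acads, for short chains, was at 126 CPM, and Acad11, which takes long and very long chains, at 115 CPM. Counts rise with transcript length, so levels were also compared as CPM per kb of the longest annotated transcript, and the range over 3 definitions of length (longest transcript, union of all exons, coding length) is given beside each ratio. Per kb, Acadl was 1.94 times Acadm (1.78 to 3.55) and 2.62 times Acadvl (2.62 to 3.53), so it led this family under each length. The order of Acadm against Acadvl and Acads depended on the length used, with ratios from 0.873 to 1.98 and from 0.909 to 1.55.

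Later steps of the mitochondrial round held both the highest and the lowest mitochondrial level per kb. Acaa2, the thiolase that releases acetyl-CoA from medium chains, was at 336 CPM per kb, second of the 40 under all 3 lengths. Hadh, the hydroxyacyl-CoA dehydrogenase of shorter chains, was at 283 CPM (75.6 CPM per kb), and Echs1, the hydratase of short chains, at 82.4 CPM (20.2 CPM per kb). Per kb of the longest transcript, Acaa2 was 4.45 times Hadh (1.42 to 5.91).

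Hadha and Hadhb encode the alpha and beta subunits of the mitochondrial trifunctional protein, which handles long chains as 1 complex. Hadha was listed at 336 CPM and Hadhb at 0.159 CPM, just above the lowest value of the table. Hadha has 1 curated RefSeq transcript and Hadhb has 3. Of the 50-base windows of their longest annotated transcripts, 0.655% and 4.47% recur in transcripts of other genes. For Hadhb that transcript has 3 exons and 4388 bases, beside a coding length of 1425, so 4.47% may rest partly on intron sequence. The genes lie head to head on chromosome 5 of GRCm38 (mm10), Hadha from 30118304 to 30155162 on the minus strand and Hadhb from 30155248 to 30184593 on the plus strand. The 85 bases between their annotated starts are shown because they border both genes; they come from the RefSeq promoter table (GRCm38.p6, plus strand), at chr5:30155163-30155247, with CG dinucleotides in capitals.
Hadha-Hadhb interval: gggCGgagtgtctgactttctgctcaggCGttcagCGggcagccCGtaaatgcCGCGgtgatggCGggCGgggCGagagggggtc
Of these bases 69.4% are G or C, and they hold 9 CG dinucleotides. By CPM, the genes on the 2 sides of this interval ranked 5 (Hadha) and 38 (Hadhb) among the 40.

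Unsaturated fatty acids need further enzymes. Eci1, which shifts a double bond into the position that the cycle accepts, was at 108 CPM, and Decr1, the dienoyl-CoA reductase of mitochondria, at 112 CPM. Their order reversed with the scale: Eci1 was 0.963 times Decr1 in CPM and between 1.12 and 2.51 times Decr1 per kb.

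Electrons from the dehydrogenases pass to electron transfer flavoprotein, made of the products of Etfa and Etfb, and from it to the membrane enzyme encoded by Etfdh. Etfa was at 270 CPM, Etfb at 249 CPM and Etfdh at 112 CPM. Per kb the flavoprotein subunits were at 194 (Etfa) and 279 (Etfb), and Etfdh was at 30.0. Both subunits were above Etfdh under each length, Etfa by 4.45 to 9.85 times and Etfb by 5.37 to 14.3 times, while Etfa and Etfb lay within a ratio of 0.687 to 0.830 of each other. For Etfb, 67.3% of the 50-base windows also occur in Gm45233, so reads could be split between these annotations.

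Among the genes of ketone bodies, Acat1, the thiolase that joins acetyl-CoA units, had the highest CPM of all 40 at 531. Bdh1, which interconverts the main ketone bodies, was at 35.8 CPM with 2 curated transcripts. Acat1 exceeded Bdh1 by 12.0 to 15.3 times per kb. Acot2, a mitochondrial thioesterase, was at 18.1 CPM, and 27.7% of its 50-base windows are shared, mostly with its neighbour and close relative Acot1.

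Peroxisomal steps were listed at a median of 49.7 CPM over 10 genes, at percentile 85.1 of rows with reads, and 3 of the 10 were above 100 CPM. Per kb the median was 19.4, against 62.5 for the mitochondrial members, a ratio of 3.21. Without Crat, Acad11, Eci2, Hsd17b4 and Scp2, the genes taken as acting in both compartments, the ratio was 4.28. With members of 1 curated transcript alone the ratio was 1.77, and in CPM the medians of those 6 peroxisomal and 19 mitochondrial genes were 112 and 126. All 4 peroxisomal genes with 2 or more curated transcripts were at or under 81.1 CPM. The mitochondrial and peroxisomal levels overlapped widely, from 0.159 to 531 CPM and from 0.692 to 193 CPM.

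Scp2, whose longer product is the thiolase for branched chains and whose shorter product is a sterol carrier, was the highest peroxisomal gene at 193 CPM. Crot, which makes medium-chain acylcarnitines for export from peroxisomes, was at 183 CPM, and Hsd17b4, the bifunctional enzyme of branched and very long chains, at 157 CPM. Ehhadh, the other bifunctional enzyme, was at 66.8 CPM, and Hsd17b4 exceeded it by 2.06 to 2.62 times per kb. Decr2, the peroxisomal dienoyl-CoA reductase, was at 32.6 CPM. Of the Scp2 windows of 50 bases, 41.4% also occur in the pseudogene Scp2-ps2.

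The peroxisomal genes with low listed values were those of the oxidases and of an isomerase. Acox2, the oxidase of bile acid intermediates, was at 5.64 CPM with 2 curated transcripts. Acox3, an oxidase of branched chains, was at 0.692 CPM with 4, and Eci2, an isomerase found in both organelles, at 3.10 CPM with 2.

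Acaa1a and Acaa1b encode the straight-chain thiolases of peroxisomes and lie near each other on chromosome 9 of GRCm38, from 119339676 to 119350299 and from 119148023 to 119157093. Acaa1a was at 81.1 CPM and Acaa1b at 28.4 CPM. Their coding sequences, 1272 bases each, differ at 44 positions and are 96.5% identical, with a longest identical run of 327 bases. Of the 50-base windows, 46.2% of those of Acaa1b and 16.2% of those of Acaa1a occur in transcripts of other genes, for the most part in each other. The stretch with the most differences is shown, coding bases 259 to 318 of each GENCODE transcript, to show how far reads could tell the genes apart; the 11 differing bases are in capitals.
Acaa1a: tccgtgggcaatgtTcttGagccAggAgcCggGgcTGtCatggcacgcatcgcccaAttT
Acaa1b: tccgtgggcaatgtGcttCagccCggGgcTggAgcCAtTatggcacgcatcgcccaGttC
Reads from such a stretch can be assigned to 1 gene, but reads within the identical runs cannot, so the separate values of this pair are uncertain. The ratio of Acaa1a to Acaa1b was 2.86 in CPM and from 1.27 to 2.86 per kb.

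**Figure D3:**
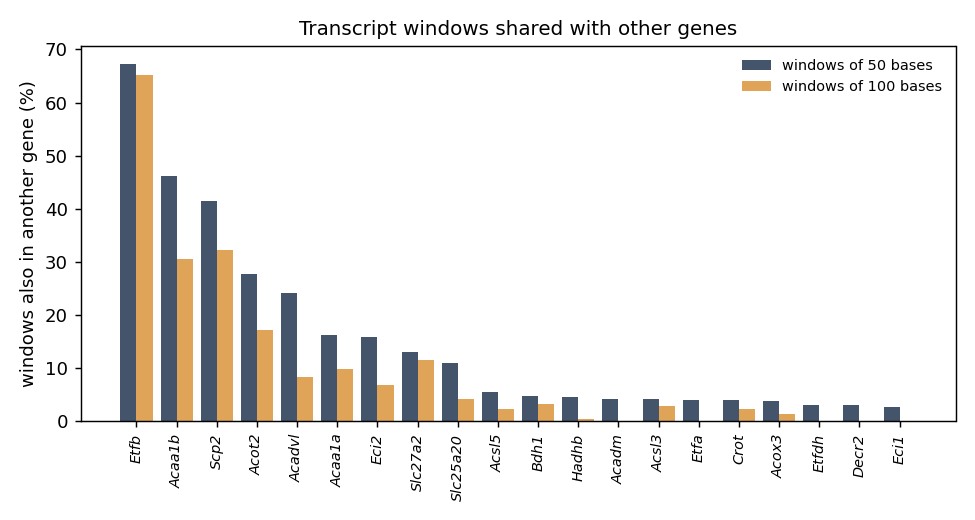
Percent of the windows of each gene's longest transcript, of 50 bases (dark) and of 100 bases (light), that also occur in a transcript of another gene, for the 20 members above 2% at 50 bases. Etfb stands highest, at 67.3% and 65.2%, followed at 50 bases by Acaa1b and Scp2.

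The part of shared sequence in the listed levels was not tested, and its values are given beside them. The 9 members with more than 10% of shared 50-base windows were Etfb, Acaa1b, Scp2, Acot2, Acadvl, Acaa1a, Eci2, Slc27a2 and Slc25a20, and their levels ran from 3.10 CPM (Eci2) to 266 CPM (Slc27a2). The 7 members under 1 CPM had between 0% (Cd36 and Acsl4) and 4.47% (Hadhb) of such windows. Windows were taken from the longest annotated transcript, which has 1 exon for Slc25a20, 2 for Eci2 and 3 for Hadhb. The shares of these genes may rest partly on intron sequence. The share of all genes above 10% was not computed.

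Uptake and binding proteins were listed between 0.362 and 266 CPM. Slc27a2, a transporter of long chains with acyl-CoA synthetase activity, was at 266 CPM, and Slc27a4, a relative of broad distribution, at 32.8 CPM, a ratio of 8.41 to 11.3 per kb. Fabp1, the liver fatty acid binding protein, was at 252 CPM. It was the highest of the 40 per kb under all 3 lengths, at 455 CPM per kb of its transcript of 553 bases. Cd36, the fatty acid translocase, was listed at 0.362 CPM with 5 curated transcripts, the most of the 40.

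**Figure D4:**
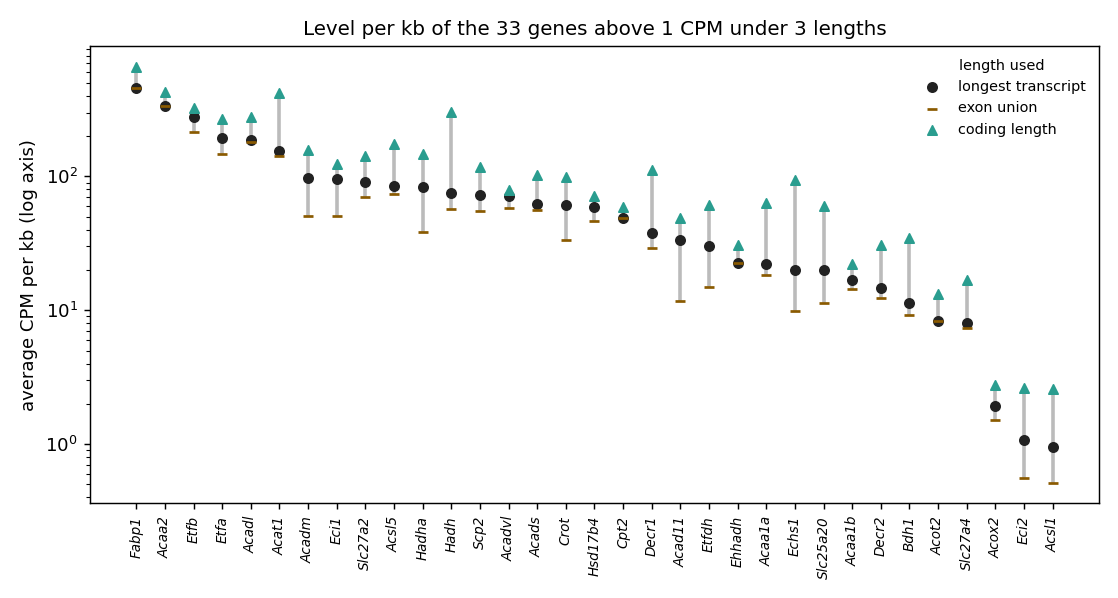
Average CPM per kb (log axis) of the 33 members above 1 CPM, in the order of the level per kb of the longest transcript; circles, bars and triangles use the longest transcript, the exon union and the coding length, and grey lines join them. Fabp1 and Acaa2 are first and second under each length, whereas Hadh runs from 56.9 to 301 and Echs1 from 9.94 to 94.7.

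Fabp1 is a classical target of PPAR alpha, the nuclear receptor that turns on fatty acid oxidation and binds, with RXR, direct repeats of a hexamer with 1 base between them (DR1). Promoters from RefSeq (GRCm38.p6, 250 bases before to 50 after a start) were found for 35 of the 40 genes and searched on both strands for 2 copies of AGGNCA so spaced. Fabp1 was the 1 member of 35 with a match (2.86%), against 0.451% of 27025 genes. The match lies on the minus strand, from position -67 relative to the RefSeq start. The GENCODE start of Fabp1, 71199827, differs from the RefSeq start and lies just after the match, so the position depends on the annotation. The match is shown in capitals within chr6:71199797-71199839, plus strand, because the gene with the highest level per kb carries it.
Fabp1: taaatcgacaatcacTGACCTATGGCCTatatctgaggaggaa
With 1 mismatch allowed in each repeat, 15 of the 35 members (42.9%) and 25.9% of all genes held a match. A match of letters does not show that a receptor binds there, and binding was not measured.

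The long-chain acyl-CoA synthetases activate fatty acids. Acsl5 was at 357 CPM with 1 curated transcript. The others had 2 or 3 and were listed far lower: Acsl1, the main synthetase of adult liver, at 5.42 CPM, Acsl4, which prefers arachidonate, at 0.222 CPM, and Acsl3, found on lipid droplets, at the lowest value. In this family of 4 genes the one with 1 curated transcript had the highest listed level, and the part of the transcript number was not tested. Ppargc1a, the coactivator that raises oxidative genes on fasting and after birth, was at the lowest value too, with 1 curated transcript.

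For the rest of the pathway, a list of 41 further genes was drawn up, and all had a row. Their median was 10.8 CPM; 21 were above 10 CPM, 8 above 100 CPM and 13 under 1 CPM. Among the highest were Fabp5 (627 CPM), a fatty acid binding protein of many tissues, and Phyh (213 CPM), which starts the alpha-oxidation of phytanate. Ppargc1b (0.159 CPM), Slc27a3 (0.172 CPM) and Slc27a1 (0.216 CPM) were the lowest, with 2, 2 and 4 curated transcripts. Of the 22 genes with 1 curated transcript 4 were under 1 CPM, and of the 19 with 2 or more 9 were. Fabp5, at the top, has 3 curated transcripts. Cpt1a, the outer membrane enzyme of the carnitine shuttle, was at 77.1 CPM, beside 116 CPM for Cpt2.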

How the data were processed

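PolyA RNA of 12 whole livers was sequenced from Illumina TruSeq v2 libraries, which do not keep strand. Per the labels and the study's methods, reads were trimmed with cutadapt 1.2.1, aligned to mm10 with Subread 1.3.6-p1, named with biomaRt and compared with edgeR by the authors. The table that the authors deposited gives an average log2 CPM per gene symbol over both diets, in 2 columns that did not differ (largest difference 0). Its other columns are the authors' own comparison of the diets (log2 fold changes, p-values, adjusted p-values and signed fold changes), and these were not used.

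The planned count-based test of the diets needs counts of single livers and was not run. CPM was taken as 2 to the power of the average and divided by the lengths in GENCODE M21, whose build GRCm38 is also named mm10; 21069 symbols were found there. A row counted as without reads at the lowest value, 0.152 CPM, which also sets a floor under low levels. Transcript numbers are RefSeq accessions of the curated coding kind (GRCm38.p6, 20855 symbols matched), from a later release than the authors could have used. The longest annotated transcript can be one that keeps introns. It has 1 exon for Slc25a20 and Acad11, 2 for Eci2, and 3 for Hadh, Hadhb, Echs1 and Etfdh. For such genes the level per kb of that transcript and the shared windows may rest partly on intron sequence. Shared windows were exact matches of 50 bases, on either strand, between a member's longest transcript and transcripts of other genes. A peroxisomal signal in the proteins was planned and is not reported, as no protein table was used. All members are named by step; of the 41 further pathway genes the highest 3 and lowest 3 were to be, of which 1 is not reported here, and Cpt1a was added after its value was seen. The members and lists were chosen with earlier results of these data known. The searches were tested on simulated data. Python 3.11.15, numpy 2.4.6, pandas 2.3.3 and matplotlib 3.10.9 were used.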

Additional observations from a re-analysis of the deposited data

How the results depend on the processing

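Values without replicates were taken as moved when they changed by more than 1.5 times. Coding length in place of the longest transcript raised the median CPM per kb to 102 for mitochondrial, 31.0 for peroxisomal and 9.78 for uptake, binding and activation members, from 62.5, 19.4 and 4.52. With members of 1 curated RefSeq transcript alone, the peroxisomal median was 40.5, the uptake, binding and activation median 87.6, and the ratio of mitochondrial to peroxisomal medians 1.77 in place of 3.21. Windows of 100 bases left 5 members above 10% shared in place of 9, and 1 mismatch per repeat gave 15 members with a DR1 match in place of 1. The other 18 of 26 alternatives of these summaries stayed within 1.5 times (subtraction of the lowest value among them; this and the restriction to 1 curated transcript were chosen after seeing the data), and the mitochondrial median was above the peroxisomal one in each. Some of these could hardly move. The lowest value, 0.152 CPM, is small beside the group medians, and the percentile among rows above 1 CPM left out the members under it. Of the 40 members, 12 moved with the exon union length and 27 with the coding length, and 7 were among the 10 highest per kb under all 3 lengths. The alternatives of the diet comparison (DESeq2, no filter on low counts, leaving out livers) were not run. No paired analysis was possible because the values of the livers are pooled. Depth per liver is unknown, so the counting error of each level is unknown too.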
